A study of Mus musculus with 4 samples.

Results

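The oligoadenylate synthetase (Oas) family was examined in C3H10T1/2 cells, a mouse mesenchymal line, with and without 5-azacytidine (5-AZA). Its members were fixed by symbol as Oas1a, Oas1b, Oas1c, Oas1g, Oas2, Oas3, Oasl1 and Oasl2, and all transcripts of a symbol were summed to give the gene. The mRNA table held rows for 7 of these 8 genes, made of 17 of its 75959 transcripts, among 21878 genes in all. Oas1b had no row.

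Total RNA was sequenced from 2 untreated samples (replicates 1 and 2) and 2 treated samples (replicates 101 and 102). The treated cells were held in 20 µM 5-AZA for 72 hours and then kept for 21 days in fresh medium. 5-AZA is a cytidine analogue that is built into nucleic acids and traps DNA methyltransferases, so that DNA methylation is lost as cells divide, and the study used it to drive these cells towards muscle. All 4 samples come from 1 cell line, no vehicle-only control was among them, and the labels do not say whether replicates were separate cultures, so p-values measure only the spread between these samples. No culture time is given for the untreated samples, so 5-AZA and time in culture cannot be told apart.

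Oas enzymes are induced by interferon. On binding double-stranded RNA they join ATP into 2-5A, short chains of adenosine with 2′-5′ bonds, which act as a second messenger in the antiviral response. The mouse has a large set of Oas1 genes, of which Oas1a and Oas1g encode active enzymes. Oas2 and Oas3 carry tandem copies of the synthetase unit. The Oas-like proteins carry ubiquitin-like domains at their C-terminus. Oasl2 still makes 2-5A, whereas Oasl1 does not and is known as a repressor of Irf7 translation.

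Expression was given in FPKM, which counts fragments per length of transcript and per number of mapped fragments, so levels can be set side by side between genes. A gene was called higher or lower when limma gave a Benjamini-Hochberg adjusted p below 0.05 over all 13199 genes tested and a difference of over 2-fold on the log2(FPKM + 0.1) scale. A gene entered the test when its 4 samples averaged 0.1 FPKM or more. The summed FPKM of a sample ran from 328410 to 361664, and 10298 to 11124 genes per sample stood at 1 FPKM or more. Skeletal muscle markers were called higher in 8 of 8 cases in 5-AZA cells, beside 13.1% of all genes. Myod1, Myog, Tnni2, Ckm and Myh3 among them had untreated means below 0.1 FPKM. These genes entered the test only through the 5-AZA samples and so had to differ. Of 12 mesenchymal markers, 10 had an untreated mean of at least 1 FPKM.

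The promoters are shown because the members' levels differed between the groups and the interferon-stimulated response element, to which a complex with Stat2 and Irf9 binds, is the known control element of this family. RefSeq windows from 250 bases before to 50 bases after the start site (GRCm38.p6) were matched for 6 of the 8 members. Both strands were searched for GAAA, any 2 bases and GAAA again, a core of that element, and the matches are in capitals. The match was found in 4 of the 6 windows, against 1131 of 32851 windows in the whole table (3.44%) and 6 of 17 windows of other interferon-stimulated genes. It was found in the windows of Oas1a (chr5:120907476-120907775, minus strand), Oas1g (chr5:120887564-120887863, minus strand), Oas1c (chr5:120812465-120812764, minus strand) and Oas3 (chr5:120777610-120777909, minus strand), printed 5′ to 3′ in the direction of each gene.
Oas1a: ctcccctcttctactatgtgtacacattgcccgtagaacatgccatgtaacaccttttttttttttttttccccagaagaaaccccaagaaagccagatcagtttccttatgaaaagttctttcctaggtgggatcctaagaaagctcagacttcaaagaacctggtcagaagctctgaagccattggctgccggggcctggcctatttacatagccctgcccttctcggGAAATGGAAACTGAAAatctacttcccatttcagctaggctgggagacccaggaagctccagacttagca
Oas1g: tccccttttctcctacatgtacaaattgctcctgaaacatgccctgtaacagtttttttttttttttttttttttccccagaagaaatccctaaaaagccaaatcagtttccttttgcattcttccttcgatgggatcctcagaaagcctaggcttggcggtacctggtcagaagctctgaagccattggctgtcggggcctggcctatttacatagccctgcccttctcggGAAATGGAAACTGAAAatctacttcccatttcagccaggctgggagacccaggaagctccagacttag
Oas1c: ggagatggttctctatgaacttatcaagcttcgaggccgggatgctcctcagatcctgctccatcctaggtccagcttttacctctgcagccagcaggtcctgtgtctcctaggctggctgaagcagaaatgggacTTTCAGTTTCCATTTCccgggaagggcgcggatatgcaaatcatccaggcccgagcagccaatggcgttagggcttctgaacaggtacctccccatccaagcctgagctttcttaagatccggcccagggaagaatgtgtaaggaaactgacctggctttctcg
Oas3: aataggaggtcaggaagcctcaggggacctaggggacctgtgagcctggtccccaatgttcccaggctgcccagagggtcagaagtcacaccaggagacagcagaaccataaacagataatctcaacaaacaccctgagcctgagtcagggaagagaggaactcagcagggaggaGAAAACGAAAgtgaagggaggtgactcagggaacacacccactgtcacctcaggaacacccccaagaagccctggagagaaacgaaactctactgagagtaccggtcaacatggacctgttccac
In Oas1a and Oas1g the capitals were the same 16 bases, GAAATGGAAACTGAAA, which hold a pair of overlapping matches at -20 to -5 in Oas1a and -18 to -3 in Oas1g. These positions are counted from the start site of the window, which lies 19 bases inside the annotated gene for Oas1a, 26 for Oas1c and 25 for Oas3, and at the gene's first base for Oas1g. The whole windows of these paralogs were identical at 261 of 306 aligned positions (85.3%), the highest identity of any pair of Oas windows in the table. In Oas1c the same 16 bases lay on the opposite strand (chr5:120812613-120812628), at -114 to -99. Oas3 had a single match at -75 to -66. The windows of Oasl1 and Oasl2 held no such letters. Their start sites lie 97 and 8 bases inside the annotated genes, so less sequence before the gene was searched for Oasl1. A match in a window is a description of sequence and no evidence of binding.

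Every member with a row was higher in both 5-AZA samples than in both untreated samples. The sum of the 7 members was 0.710 and 0.627 FPKM in the untreated samples and 20.7 and 23.9 FPKM in the 5-AZA samples. The means were 0.668 ± 0.0589 and 22.3 ± 2.25 FPKM (SD, n = 2 each), a 33.4-fold ratio. All 7 were called higher, beside 13.1% of all genes called higher and 1.32% called lower. The groups of a gene did not overlap, with 5-AZA above, for 36.8% of the genes tested. Only 2 of the 7 members had an untreated mean of at least 0.1 FPKM, Oas1c and, only just, Oasl2 (0.1003 FPKM). The other 5 passed the limit on low values only through the 5-AZA samples and so had to differ, and the count of 7 is a description of the family. The p-values and intervals given below for these 5, Oas1a, Oas1g, Oas2, Oas3 and Oasl1, carry the same caveat. For Oas1g and Oasl1 the p-values also rest on the added 0.1 FPKM. Without the limit, 4 of the 7 were called higher beside 3.2% of all genes, Oas1a, Oas1c and Oas3 not being among them, and the highest unadjusted p of a member was 0.0163. In bulk RNA, more cells that express a gene and more RNA per cell cannot be told apart.

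**Figure D1:**
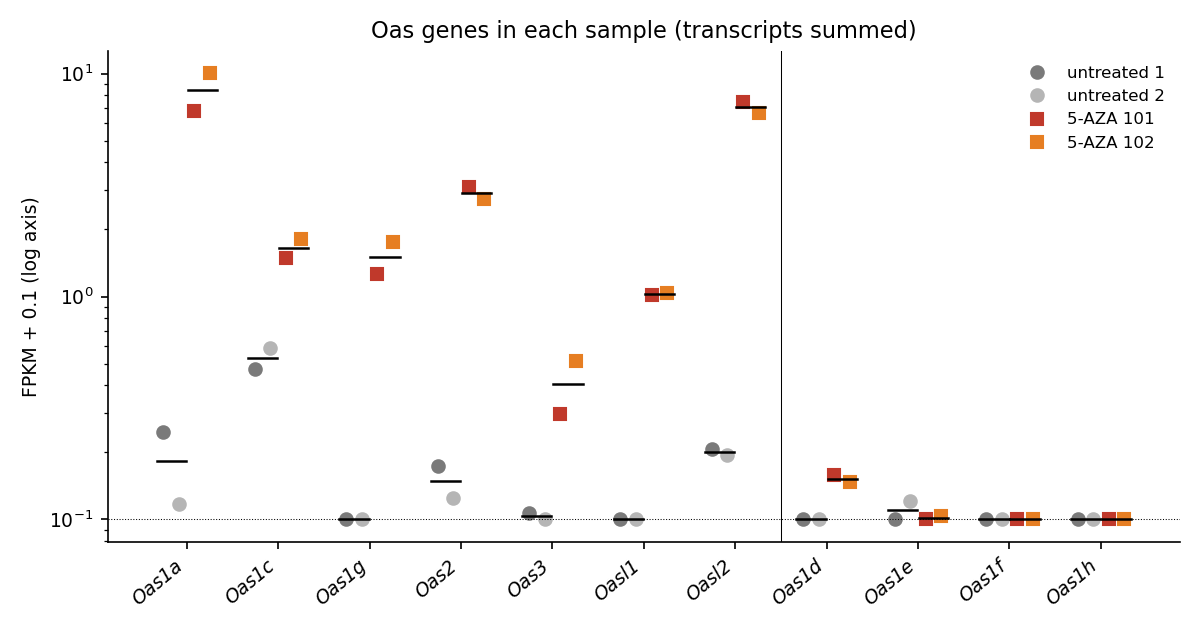
FPKM + 0.1 on a log axis for the 7 Oas members with rows and, right of the vertical line, the other 4 Oas1 paralogs, with 1 point per sample, a bar at each group's mean (n = 2) and a dotted line where FPKM is 0. The 5-AZA points lie above the untreated points for every member, from 0.197 FPKM for Oas3 to 9.95 FPKM for Oas1a.

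Oas1a encodes an active 2-5A synthetase and had the highest 5-AZA mean of the family. It stood at 0.148 and 0.0178 FPKM in the untreated samples and at 6.69 and 9.95 FPKM in the 5-AZA samples. Both untreated values were low but lay far apart, and the groups did not overlap. The log2 fold change was 5.60 (SE 0.38, 95% interval 4.73 to 6.46, limma, Benjamini-Hochberg adjusted p = 1.40e-05). The adjusted p rose to 0.0622 without 5-AZA replicate 101 and to 0.0698 without 5-AZA replicate 102, with log2 fold changes of 5.88 and 5.31. Without the limit on low values it was 0.0584.

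Oas1g, the nearest paralog of Oas1a by promoter sequence, was listed at 7.53e-20 and 9.91e-43 FPKM in the untreated samples, which is 0 in practice. It reached 1.16 and 1.66 FPKM in the 5-AZA samples. Both treated samples were therefore above a group with no measurable level, and no fold is given (limma, Benjamini-Hochberg adjusted p = 6.84e-05). Oas1a and Oas1g are close paralogs, and where their transcripts share reads, the estimate that divides them leaves the split of their levels uncertain.

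Oas1c, an Oas1 paralog not known to make 2-5A, was the member with the highest untreated level. It stood at 0.374 and 0.491 FPKM in the untreated samples and at 1.39 and 1.71 FPKM in the 5-AZA samples. The groups did not overlap, with a log2 fold change of 1.63 (SE 0.27, 95% interval 1.01 to 2.26, limma, Benjamini-Hochberg adjusted p = 0.00269). Its adjusted p was 0.0767 without 5-AZA replicate 101 and 0.0957 without 5-AZA replicate 102. After quantile normalization its log2 fold change fell under 2-fold, to 0.78.

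Oas2 encodes a synthetase with a pair of tandem units. It stood at 0.0745 and 0.0244 FPKM in the untreated samples and at 2.99 and 2.63 FPKM in the 5-AZA samples. The treated samples lay close to each other and far above both untreated samples. The log2 fold change was 4.30 (SE 0.31, 95% interval 3.60 to 5.01, limma, Benjamini-Hochberg adjusted p = 1.95e-05).

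Oas3, the longest synthetase of the family, had the lowest level in 5-AZA cells. It was listed at 0.00718 and 1.57e-35 FPKM in the untreated samples and stood at 0.197 and 0.415 FPKM in the 5-AZA samples. The treated samples differed 2.11-fold from each other but did not overlap with the untreated ones. The log2 fold change was 1.92 (SE 0.43, 95% interval 0.92 to 2.91, limma, Benjamini-Hochberg adjusted p = 0.0125). This call rested on low values. After quantile normalization the log2 fold change was 0.56 with an adjusted p of 0.284, and without 5-AZA replicate 102 the gene fell below the limit and was not tested.

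Oasl2, the Oas-like gene that still encodes a synthetase, had the second highest 5-AZA mean. It stood at 0.107 and 0.0940 FPKM in the untreated samples and at 7.38 and 6.58 FPKM in the 5-AZA samples. Replicates were close in both groups, but the untreated values lay about at the limit on low values. The log2 fold change was 5.14 (SE 0.24, 95% interval 4.59 to 5.70, limma, Benjamini-Hochberg adjusted p = 2.11e-06).

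Oasl1, the Oas-like gene whose protein lacks synthetase activity, was listed at 0 in both untreated samples. It stood at 0.913 and 0.939 FPKM in the 5-AZA samples. The treated replicates were nearly equal (0.926 ± 0.0186 FPKM, SD, n = 2), and no fold is given against a group listed at 0 (limma, Benjamini-Hochberg adjusted p = 1.54e-04).

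**Figure D2:**
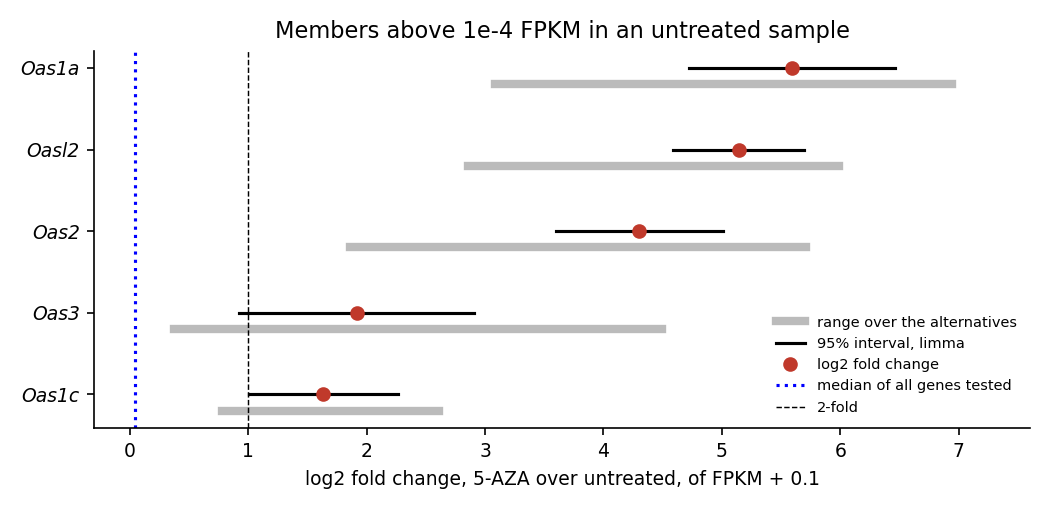
Log2 fold change of FPKM + 0.1, 5-AZA over untreated, for the 5 members with at least 1e-4 FPKM in an untreated sample. Points are the estimates, black lines 95% intervals from limma (n = 2 per group) and grey bars the range over the alternative settings, single transcripts left aside. The grey bars of Oas3 and Oas1c reach below 2-fold, and the place of Oas3, whose untreated values are near 0, depends on the added 0.1.

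The make-up of the family differed between the groups. In untreated cells Oas1c held 64.7% of the summed FPKM, followed by Oasl2 with 15.0%, Oas1a with 12.4%, Oas2 with 7.39% and Oas3 with 0.537%. In 5-AZA cells Oas1a held 37.3%, Oasl2 31.3%, Oas2 12.6%, Oas1c 6.95%, Oas1g 6.32%, Oasl1 4.15% and Oas3 1.37%. Oas1a and Oasl2 together made up 35.8% and 17.8% of the sum in the untreated samples and 67.9% and 69.2% in the 5-AZA samples. Neighbours in this order were not always separated. In 5-AZA cells the replicates of Oas1a overlapped with those of Oasl2, and those of Oas1c with those of Oas1g. In untreated cells Oasl2 overlapped with Oas1a and Oas1a with Oas2. Between the treated replicates, 5 members were higher in 102 and 2, Oas2 and Oasl2, were lower, with ratios of 102 to 101 from 0.882 for Oas2 to 2.11 for Oas3.

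The remaining Oas1 paralogs were near 0. Oas1d was listed at 0.0578 and 0.0473 FPKM in the 5-AZA samples and at or near 0 in the untreated samples. Oas1e and Oas1f were below 0.1 FPKM in every sample and Oas1h was listed at 0 in every sample. None of these 4 genes reached the limit for testing.

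Transcript estimates were less certain than gene sums, and 13 of the 17 member transcripts reached the limit for testing. Of these, 6 were called higher and 0 lower by limma with Benjamini-Hochberg adjustment, beside 2.1% and 0.262% of the 35557 transcripts tested. At an unadjusted p below 0.05, 12 were higher and 0 lower, beside 10.6% and 5.37%. Only 2 of the 13, both of Oas1c, had an untreated mean of at least 0.1 FPKM. The other 11, all 6 called ones among them, passed the limit only through the 5-AZA samples and so had to differ, and these counts too are a description. The 6 were both transcripts of Oas1a, the single transcript of Oas1g, NM_145227.3 of Oas2, and NM_011854.2 and XM_006530314.3 of Oasl2.

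The 2 most abundant transcripts of Oas1c differed in opposite directions between the groups. The curated transcript NM_033541.4 stood at 0.0609 and 0.264 FPKM in untreated cells and at 1.32 and 1.45 FPKM in 5-AZA cells. The predicted transcript XM_006530120.1 stood at 0.251 and 0.211 FPKM in untreated cells and at 0.00755 and 0.0317 FPKM in 5-AZA cells. The treated samples were thus above the untreated ones for the first and below them for the second. NM_033541.4 made up 37.6% of the gene in untreated and 89.4% in 5-AZA cells, and XM_006530120.1 53.4% and 1.27%. Neither transcript passed the test on its own, with log2 fold changes of 2.62 (limma, Benjamini-Hochberg adjusted p = 0.126) and -1.47 (adjusted p = 0.336).

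The make-up of other members also differed between groups or replicates. XM_006530325.3 made up 46.8% of Oas2 in untreated and 14.7% in 5-AZA cells, and NM_011854.2 made up 96.3% and 6.58% of Oasl2 in the 2 untreated samples. The curated transcript held most of the 5-AZA level of Oas1a (NM_145211.2, 75.3%) and Oas2 (NM_145227.3, 72.7%). Oasl2 was divided among NM_011854.2 (40.5%), XM_006530314.3 (35.3%) and XM_006530316.3 (23.8%). Oasl1 was the exception, since the predicted transcript XM_006530294.3 held 92.4% of its level and the curated NM_145209.3 held 7.55%. With predicted transcripts left out, Oasl1 fell below the limit and was not tested.

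**Figure D3:**
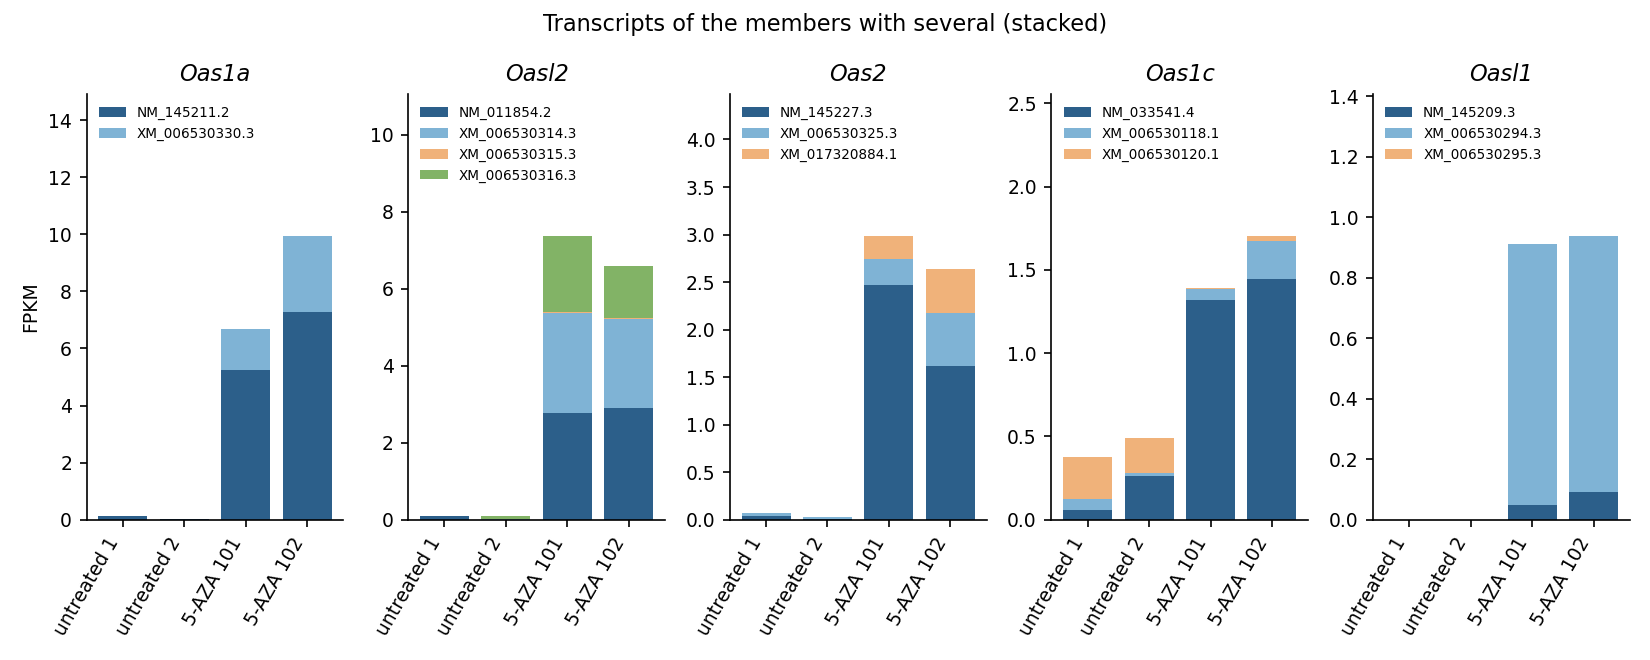
FPKM of the transcripts of the 5 members with more than 1, stacked in a bar for each sample, each gene on its own scale. In Oas1c the orange part, XM_006530120.1, is lower in 5-AZA cells, from 0.251 and 0.211 FPKM to 0.00755 and 0.0317 FPKM.

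The members lie in 2 clusters on chromosome 5 (GRCm38.p6). Oasl2 (chr5:114896926-114912245) and Oasl1 (chr5:114923143-114937911) lie on the plus strand within 41.0 kb, which also hold the annotated gene Gm13822. Oas2 (chr5:120730333-120749886), Oas3 (chr5:120753098-120777684), Oas1c (chr5:120800194-120812540), Oas1g (chr5:120876142-120887613) and Oas1a (chr5:120896256-120907544) lie with 5 further Oas1 genes in 191.316 kb that hold no other annotated gene. Within this cluster the level in 5-AZA cells did not follow position, since Oas1h at 0 and Oas1d at 0.0525 FPKM lie on the far sides of Oas1g and Oas1a.

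Neither of the 2 flanking genes that could be tested was called, beside 13.1% of all genes called higher and 1.32% called lower. With 2 genes this says little about the flanks. Of the 3 annotated genes on each side of each cluster, 9 of 12 had rows and 2 reached the limit. Ptpn11, a tyrosine phosphatase gene beyond the Oas1d end of the larger cluster, stood at 24.9 and 22.6 FPKM in untreated and 24.8 and 28.1 FPKM in 5-AZA cells (log2 fold change 0.15, limma, Benjamini-Hochberg adjusted p = 0.383). 2210016L21Rik stood at 10.1 and 10.8 FPKM and at 6.83 and 10.8 FPKM (log2 fold change -0.28, adjusted p = 0.377).

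**Figure D4:**
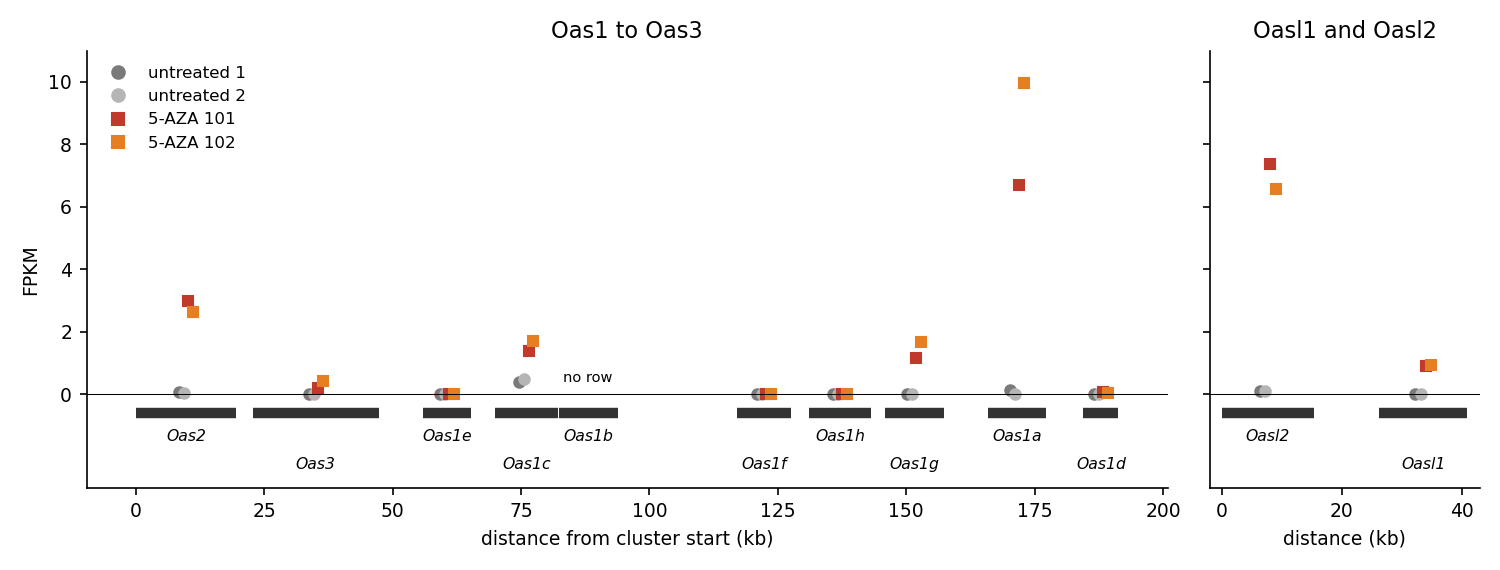
FPKM of every Oas gene in each sample, placed along its cluster by distance in kb from the cluster's first base, with black bars for the gene bodies. Oas1a and Oasl2 reach 6.58 FPKM or more in 5-AZA cells, while Oas1e, Oas1f, Oas1h and Oas1d stay below 0.1 FPKM. Oas1b has no row.

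Oas1b, whose product lacks its C-terminal part in most laboratory strains and is tied to flavivirus susceptibility, could be followed only through a long noncoding RNA (lncRNA). GRCm38.p6 annotates Oas1b as a transcribed pseudogene at chr5:120812635-120824163. The lncRNA NONMMUT054268.2 (chr5:120812635-120814585, plus strand, 558 bases in 3 exons) starts at the first annotated base of Oas1b. It stood at 0 and 0.104 FPKM in untreated cells and at 1.40 and 0.994 FPKM in 5-AZA cells. With an untreated mean of 0.052 FPKM, it reached the limit only through the 5-AZA samples and so had to differ. The difference did not pass the test over 24075 lncRNAs (log2 fold change 3.16, SE 0.51, limma, unadjusted p = 0.00263, Benjamini-Hochberg adjusted p = 0.130). Of these lncRNAs, 0.984% were called higher and 5.25% were higher at an unadjusted p below 0.05.

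With 94 bases between, this start lies beyond the annotated 5′ end of Oas1c, which runs the other way, and 6 bases after the 16-base run shown in the Oas1c window. In the direction of the lncRNA that run reads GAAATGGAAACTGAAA, the same letters as in Oas1a and Oas1g. The other lncRNA of this region with a level of at least 0.1 FPKM in a sample, NONMMUT054267.2 at the 5′ end of Oas1c (chr5:120811208-120812546, minus strand), stood at 0.195 and 0.158 FPKM in untreated and 0.533 and 0.198 FPKM in 5-AZA cells. Its log2 fold change was 0.66 (limma, Benjamini-Hochberg adjusted p = 0.619). It overlaps Oas1c on the same strand, so their reads cannot be told apart. The remaining 6 of 8 lncRNAs that overlap Oas genes stayed below 0.1 FPKM. None of the 4295 circular RNAs had a member as its host gene.

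No gene listed for the 2-5A pathway beside the synthetases was called. Of the 2-5A pathway, 0 of 4 genes passed limma's test with Benjamini-Hochberg adjustment, beside 13.1% of all genes called higher and 1.32% called lower. With 4 genes this count is near those shares. At an unadjusted p below 0.05, 1 gene, Akap7, was higher, as were 24.4% of all genes. The list's median log2 fold change was 0.03, beside 0.05 over all genes tested. Abce1, an ATPase best known for recycling ribosomes, had a log2 fold change of 0.05 and Pde12, which degrades 2-5A, of 0.00. Akap7, which has a 2-5A-cleaving phosphodiesterase domain, had one of 0.41 with an unadjusted p of 0.0234 and an adjusted p of 0.0814.

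Most other interferon-stimulated genes were higher as well. Of 20 on the list 18 had rows, 16 were tested, and 13 were called higher, beside 13.1% of all genes, with a median of 3.48 on the log2 scale. Trim25, among the 13, had an untreated mean of 0.00261 FPKM. It passed the limit only through the 5-AZA samples and so had to differ. No gene of the list was called lower, by adjusted or by unadjusted p below 0.05. Ifit3, which binds viral RNA in a complex with Ifit1, rose from 7.51 ± 0.473 to 83.7 ± 12.2 FPKM (SD, n = 2 each) and Bst2, which tethers budding virus, from 5.14 ± 0.759 to 76.6 ± 0.0834 FPKM. Ifit2 and Samd9l were not called, with log2 fold changes of 0.31 and 0.79, the latter under 2-fold at an adjusted p of 0.00139. The third gene not called was Tap1, at 0.88 and also under 2-fold (limma, Benjamini-Hochberg adjusted p = 0.00544).

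Among sensors of double-stranded RNA and other nucleic acids, 6 of 11 were called higher and 0 lower, beside 13.1% and 1.32% of all genes. The median was 1.03, or 0.88 without Ifih1, which was listed at 0 in untreated cells. Ifih1 was among the 6 called, but it passed the limit only through the 5-AZA samples and so had to differ. Eif2ak2, the RNA-activated kinase PKR, rose from 19.9 ± 0.264 to 40.7 ± 0.663 FPKM and Ddx58, the sensor RIG-I, from 5.85 ± 0.550 to 20.2 ± 0.709 FPKM (SD, n = 2 each). Neither Adar, which edits double-stranded RNA, nor Mavs, the adaptor of RIG-I, was called. Adar had a log2 fold change of 0.73, under 2-fold (limma, Benjamini-Hochberg adjusted p = 0.00658), and Mavs one of -0.05 (adjusted p = 0.863). Under median centring or quantile normalization 4 of the 11 were called higher.

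Of the interferon receptors and JAK-STAT factors, 3 of 11 tested were called higher, beside 13.1% of all genes, and 0 lower, and the median was 0.32. Among them, Irf9 rose from 7.20 ± 0.740 to 26.6 ± 0.297 FPKM and Stat2 from 4.90 ± 0.00663 to 17.0 ± 1.32 FPKM (SD, n = 2 each), both being factors that bind the response element. The receptor chain Ifnar2 had a log2 fold change of 0.68, under 2-fold (adjusted p = 0.00321), and the kinase Jak1 one of 0.01. Of interferon regulatory factors and inhibitors, 2 of 9 tested were called higher, a share near the 13.1% of all genes, and 0 lower, and the median was 0.71. They were Usp18, an inhibitor of interferon receptor signalling, with 0.435 ± 0.108 and 12.9 ± 0.171 FPKM, and Irf7, a factor that drives interferon genes, with 0.664 ± 0.10 and 9.61 ± 0.323 FPKM (SD, n = 2 each). Irf1 (0.73, under 2-fold, limma, Benjamini-Hochberg adjusted p = 0.00225) and Ptpn2 (0.29, adjusted p = 0.137) were not called.

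Interferon genes themselves were at or near 0. Of 21 ligand genes, 14 were listed at 0 in every sample, Ifnb1 among them, and 19 were below 0.1 FPKM in every sample. Ifng stood at 0 in both untreated samples and at 0.188 and 0.0778 FPKM in the 5-AZA samples, and Ifne at 0.148, 0, 0 and 0.226 FPKM. No ligand reached the limit, so none was tested. When samples were scaled to a common total, Ifng reached the limit only through the 5-AZA samples and so had to differ. Its call as higher under that setting (limma, Benjamini-Hochberg adjusted p = 0.0448) is a description of values near 0.

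Markers of immune cells, which express many of these genes, were also examined. Of 14 markers, 11 were below 0.1 FPKM in every sample and 8 listed at 0 in every sample, and the pan-leukocyte marker Ptprc was listed at 0, 0, 0.0631 and 0 FPKM. The summed marker level was nevertheless higher in 5-AZA cells, at 15.1 and 17.8 FPKM against 3.66 and 4.09 FPKM. Of 3 markers tested, Fcer1g, the gamma chain of Fc receptors, and Cd68, a lysosomal protein of macrophages, were called higher and Cd14 was not. Over all genes 13.1% were called higher. Under median centring or quantile normalization 1 of the 3 was called higher. Fcer1g stood at 9.57 and 10.9 FPKM in 5-AZA cells, most of the summed level there, and at 0.0955 and 0 FPKM in untreated cells. It passed the limit only through the 5-AZA samples and so had to differ.

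**Figure D5:**
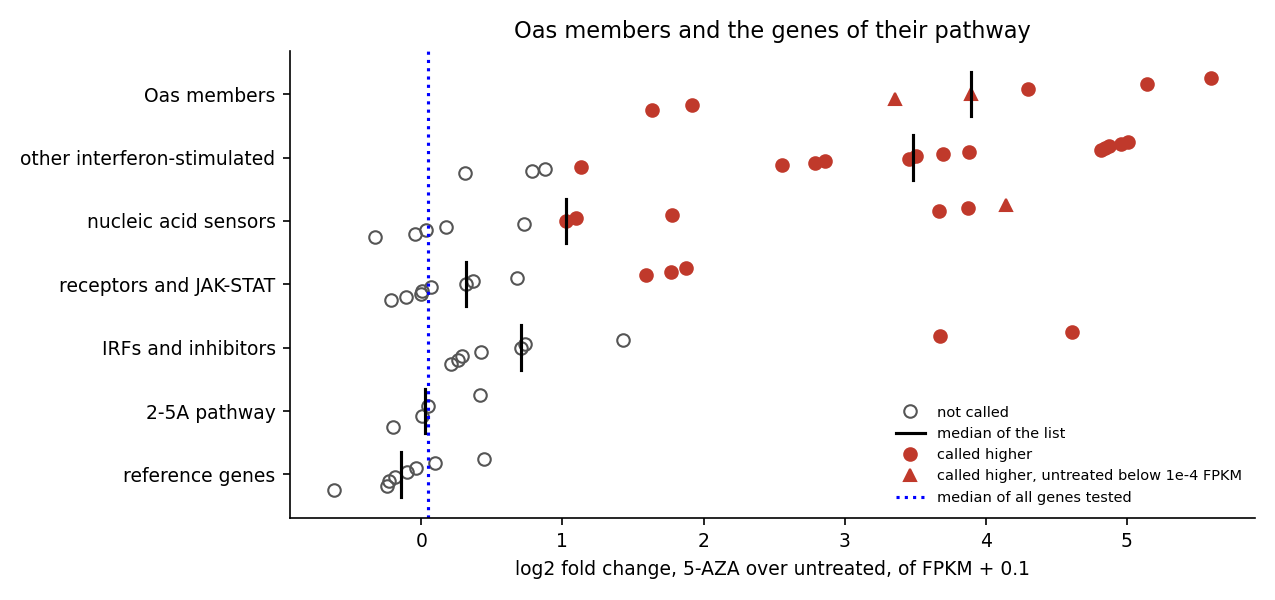
Log2 fold change of FPKM + 0.1, 5-AZA over untreated, for each tested gene of the Oas family, 5 lists of its pathway and reference genes (n = 2 per group). Filled symbols were called higher, triangles mark genes below 1e-4 FPKM in both untreated samples, whose value depends on the added 0.1, and vertical bars are list medians, with 0.03 for the 2-5A pathway and 3.48 for other interferon-stimulated genes.

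Outside these lists, 10721 genes with a mean of at least 1 FPKM were ranked by how closely their 4 values followed those of the summed members, as the Euclidean distance between log2(FPKM + 0.1) values centred on their own mean. The nearest were Ltc4s (distance 0.154), a leukotriene synthase gene, Pet2 (0.164), Ddx60 (0.165), an interferon-stimulated helicase gene, Myh4 (0.174), a fast skeletal myosin gene, and Ptges (0.175), a prostaglandin synthase gene. With 4 samples in 2 groups, a short distance says little more than a similar difference between the groups.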

How the data were processed

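Stranded total RNA libraries depleted of ribosomal RNA were sequenced from 2 untreated and 2 5-AZA-treated C3H10T1/2 samples. Per the labels, the submitters' processing notes name Trimmomatic, HISAT2, Bowtie2 2.2.9 and eXpress 1.5.1, and the build mm9. The transcript starts in the files however matched GRCm38.p6 genes within 1 base for 1365 of 2356 host transcripts of circular RNAs, so coordinates are given in that build. The deposited mRNA and lncRNA tables hold FPKM values made by the authors, 1 row per transcript. The deposited circular RNA table holds RPM values made by the authors, and only its host gene names were used. Columns of the authors' own comparisons were not used. Depth is unknown from FPKM values.

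FPKM were summed per gene. Genes with a mean of at least 0.1 FPKM were tested on log2(FPKM + 0.1) with limma 3.58.1 (R 4.3.3, moderated variances with a trend) and Benjamini-Hochberg adjustment over all genes tested. Fold changes on this scale understate those of low genes. Transcripts and lncRNAs were tested likewise. The code was tested on simulated gene values, with changes set only in genes of higher untreated level than any member. That trial therefore does not cover the range of the members. With 2 samples against 2, an exact permutation test of a single value cannot go below p = 0.333. Promoters came from RefSeq tables (Oas2 and Oas1b had no entry). The members and lists were chosen with earlier results of these data known. Named were all members, the 2 called and the 2 not called genes of highest mean FPKM in each list, and the 5 genes nearest in pattern. Some listed genes are counted but not reported here by name. Other named genes were chosen after their values were seen. Alternatives varied the pseudocount, the limit, the scaling, the trend, the transcripts and the samples used.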

Additional observations from a re-analysis of the deposited data

How the results depend on the processing

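Over 85 values of a member under a changed setting, single transcripts aside, 72 kept direction and call, 13 kept direction but lost the call, and 0 changed sign. The call was kept under every such setting by Oas2 and Oasl2, and by Oas1g wherever it was tested. With a pseudocount of 1 FPKM, 4 members, 875 genes higher and 86 lower were called, and Oas1c (log2 fold change 0.83), Oas3 (0.37) and Oasl1 lost the call. Without the limit on low values the counts were 4, 700 and 37, and with a mean of at least 1 FPKM 3 members, of 3 tested, and 845 genes higher. Quantile normalization gave 1041 genes higher and 886 lower (54.0% of calls higher), against 1724 and 174 (90.8%), and shifted the median log2 fold change of all genes from 0.05 to -0.12. Leaving out 1 sample at a time, which leaves a lone sample assumed to vary like the other group, gave 4 to 7 members, 733 to 1617 genes higher and 52 to 184 lower. Without 5-AZA replicate 101, 5 members were called, and without 5-AZA replicate 102, 4 of 6 tested. Taken alone, XM_006530120.1 turned the direction of Oas1c (-1.47). The causes were not tested. No paired analysis was possible because the groups share no replicate numbers. With 2 samples a group and no counts, the error of low values such as Oas3 cannot be set apart from sampling.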

Other observations

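The 16-base run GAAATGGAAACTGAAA of the Oas1a, Oas1g and Oas1c windows was found in 7 of 32851 RefSeq promoter windows (GRCm38.p6), which belong to 5 genes. The genes other than Oas members were Apol9a and Apol9b, apolipoprotein L genes, and they are named here for that run, after their values were seen. Apol9a stood at 5.00 and 3.16 FPKM in untreated and at 29.1 and 27.6 FPKM in 5-AZA cells (log2 fold change 2.80, limma, Benjamini-Hochberg adjusted p = 1.81e-05). Apol9b stood at 0.401 and 0.830 FPKM in untreated and at 21.0 and 19.1 FPKM in 5-AZA cells (log2 fold change 4.88, adjusted p = 5.50e-06). For both genes the treated samples lay above the untreated samples, as for 36.8% of all genes tested. Both were called higher, beside 13.1% of all genes. Whether the run bears on these levels was not tested. Apol9a and Apol9b are close copies of each other, so the split of their reads is uncertain.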
